A study of Homo sapiens with 4 samples.

Results

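The genes described here are *FN1*, *SPARC*, *LOX*, *TNC*, *THBS1*, *FBN1*, *LAMB1*, *LAMC1*, *LAMA5* and *NID1*, which code for fibronectin, SPARC, lysyl oxidase and glycoproteins of the extracellular matrix. They were chosen by name as a set of matrix genes, several of which are known miR-29 targets. The choice was made with earlier results of these data known. Of the 10 genes, 8 were among the 16811 gene symbols of the expression table, while *SPARC* and *NID1* were not analysed here. RNA-seq was performed on MCF12A cells, a non-tumorigenic mammary epithelial line of human origin. There were 2 libraries of edited cells, labelled *C1orf132* KO, in which CRISPR/Cas9 had removed the p2 promoter of the lncRNA *C1orf132*, the host gene of miR-29b2 and miR-29c. The other 2 libraries came from wild-type cells. Both groups grew in the same medium with horse serum, EGF, hydrocortisone, cholera toxin and insulin, and no other allele or agent is named in the labels. Edited colonies were grown from single sorted cells, and the sources used here do not say which colony, or how many colonies, gave the 2 edited libraries.

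Matrix glycoproteins are secreted into the space around cells, where they form fibres and sheets and present binding sites to integrins and other receptors. Laminins and nidogen build the basement membrane under epithelial cells, whereas fibronectin, tenascin C, thrombospondin 1 and fibrillin 1 belong mainly to the interstitial matrix and its repair. Lysyl oxidase cross-links collagen and elastin fibres, and fibronectin is widely used as a marker of cells that have lost epithelial features. The miR-29 family is best known for repressing collagens and other matrix genes through sites in their 3 prime untranslated regions (UTRs).

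The members of the miR-29 family share the seed through which a miRNA pairs with its targets, and the mature sequences (RefSeq, GRCh38.p14) are shown because the edited locus hosts 2 of the 4 family genes. Capitals mark the seed (bases 2 to 8), which is AGCACCA in each of them. The gene of miR-29c-3p and the *MIR29B2* copy of miR-29b-3p lie on the minus strand of chromosome 1 (chr1:207801865-207801886 and chr1:207802450-207802472). The gene of miR-29a-3p and the *MIR29B1* copy of miR-29b-3p lie on the minus strand of chromosome 7 (chr7:130876748-130876769 and chr7:130877467-130877489).
miR-29c-3p: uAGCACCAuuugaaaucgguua
miR-29b-3p: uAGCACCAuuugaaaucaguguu
miR-29a-3p: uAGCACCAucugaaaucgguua

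Matches to this seed (TGGTGCT, on the transcribed strand only) were looked up in the 3 prime UTR of the canonical GENCODE transcript of each of the 10 genes. There were 3 matches in *LOX*, 2 in *FBN1* and 1 each in *LAMC1*, *SPARC* and *NID1*, and 0 in *FN1*, *TNC*, *THBS1*, *LAMB1* and *LAMA5*. Of 8370 tested genes with such a UTR, 15.3% held at least 1 match. The set was chosen with known miR-29 targets in it, so its own share of genes with a match is not a result of these data. Among its genes with a match, only *LAMC1* was a tested gene. The UTRs differ in length, from 152 bases in *LAMB1* and 271 in *LAMA5* to 3548 in *LOX* and 4097 in *THBS1*, against a median of 1209 bases over the tested genes. A match is a description of the sequence and not a site shown to be used. The matches are printed below for the 3 of these genes with expression values, in capitals within the surrounding transcript, with positions on GRCh37, the build of the annotation used for them.
LOX, chr5:121401940-121401968 (- strand, exon 7, UTR base 484): catatggacacatcTGGTGCTgagaaaga
LOX, chr5:121401075-121401103 (- strand, exon 7, UTR base 1349): cacttttaagttagTGGTGCTtaagcata
LOX, chr5:121399197-121399225 (- strand, exon 7, UTR base 3227): cctctaagctaaaaTGGTGCTgagttatt
FBN1, chr15:48702757-48702785 (- strand, exon 66, UTR base 416): ttatggtacctattTGGTGCTagtaaatt
FBN1, chr15:48702502-48702530 (- strand, exon 66, UTR base 671): gtgagggtttgtaaTGGTGCTtattaaga
LAMC1, chr1:183113374-183113402 (+ strand, exon 28, UTR base 1463): attatctgacacacTGGTGCTattaatta

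The values are normalized expression signals deposited by the authors, whose normalization is not given in the sources used here. Low values had a more regular step once multiplied by transcript length, so they were taken as scaled for length. Levels and ratios between genes rest on that reading, which the files do not settle. The values are not read counts, and the depth of each library is unknown. They summed to between 1444644 and 1655437 per library. The groups were compared by limma on log2(value + 1) across 9590 genes whose mean over the 4 libraries reached 10, and called at a Benjamini-Hochberg adjusted p under 0.05. Such fold changes understate the change of genes with low values. Of the 8 genes, 6 passed this filter, and *LOX* and *FBN1*, with means of 4.44 and 5.37, were fitted among all 16811 genes. Exact permutation of 2 against 2 libraries has 0.333 as its smallest two-sided p, so each test rests on a variance shared across genes. Across the tested genes, Pearson's r between the edited libraries was 0.956 and that between the wild-type libraries was 0.966, while r between groups ranged from 0.841 to 0.914. *CDH1*, which codes for the epithelial cadherin, was listed at 3.89 and 1.54 with the edit and at 150 and 123 without it, while *KRT5*, a basal keratin, ranged from 3056 to 11914 over the 4 libraries. *KRT5* and *KRT17* made up most of the summed value of the epithelial markers in each library. All 8 of the epithelial markers were listed, with summed values of 4886 and 5683 with the edit and of 10933 and 20156 without it. Of these, 4 were called lower in edited cells (limma, adjusted p under 0.05: *CDH1*, *EPCAM*, *KRT17* and *TP63*), and *KRT8*, a luminal keratin, was called higher (378 and 365 with the edit, 194 and 175 without it, adjusted p = 0.0449). *KRT5*, *KRT14* and *KRT18* did not pass the threshold, with log2 fold changes of -1.17, -3.08 and 0.89. Of 11 fibroblast markers, 4 were listed (*DCN*, *COL1A1*, *FAP* and *FBLN1*), with a summed value of 259 (replicate 1) and 463 (replicate 2) with the edit, against 352 and 249 without it. Most of that sum was *FBLN1* in each library, and the others did not move together: *COL1A1* was called lower (log2 fold change -2.06, adjusted p = 0.0420 from limma), *DCN* measured 15.1 and 105 with the edit and 7.42 and 1.09 without it (3.30, adjusted p = 0.0974), and *FAP* had 0.08 (adjusted p = 0.961). Of 5 endothelial markers 0 were listed, and of 4 leukocyte markers 2 were listed (*CD14* and *LAPTM5*), with summed values between 9.41 and 16.4.

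None of the 8 genes was called between edited and wild-type cells (limma, adjusted p under 0.05). The same threshold called 2.89% of all tested genes higher and 4.2% lower in edited cells. Among the 6 tested genes, 1 had an unadjusted p under 0.05 in limma (*THBS1*), as had 32.3% of all tested genes. *FBN1* had one in the fit of all 16811 genes, as had 29.2% of them. The median log2 fold change of the 6 genes was -0.07, against 0.09 over all tested genes. All 8 were higher in edited replicate 2 than in edited replicate 1, from 1.55-fold for *LAMC1* to 21.9-fold for *FN1*. Over all tested genes, 46.6% were higher in edited replicate 2. With 1 library on each side this difference has no replicate check.

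**Figure D1:**
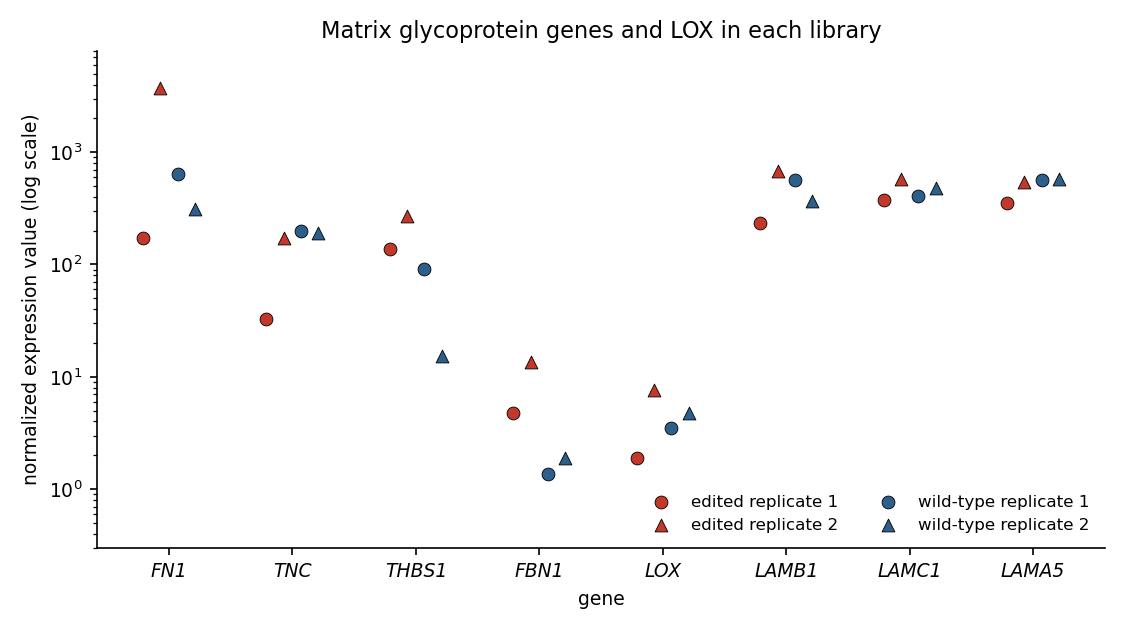
Normalized expression value (log scale) of the 8 genes in each library, with edited libraries in red, wild-type libraries in blue, circles for replicate 1 and triangles for replicate 2. The red triangle lies above the red circle for each gene, and for *FN1* the values are 3735 and 171.

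*FN1* codes for fibronectin, a dimeric glycoprotein that cells assemble into fibrils through integrins. It lies on chromosome 2 (215360865 to 215436068 on GRCh38). In edited cells it measured 171 (replicate 1) and 3735 (replicate 2), against 645 and 314 in the wild-type replicates. Edited replicate 1 was thus the lowest and edited replicate 2 the highest of the 4 libraries, so the wild-type libraries lay between them. In edited replicate 2 *FN1* ranked 76 of 16811 genes by value, against rank 1428 in edited replicate 1 and ranks 301 and 552 in the wild-type libraries. Edited cells averaged 1953 ± 2520 (SD, n = 2) and wild-type cells 479 ± 234 (SD, n = 2), a ratio of 4.07. This ratio was smaller than the 21.9-fold difference between the edited libraries. The log2 fold change was 0.83 (95% interval -2.59 to 4.24, adjusted p = 0.707 from limma). Without edited replicate 1 it was 3.05 and passed the threshold (adjusted p = 0.0111 from limma). Without edited replicate 2 it was -1.39 (adjusted p = 0.0710 from limma), so the direction of the *FN1* difference depended on which edited library was used. By the size of its increase from edited replicate 1 to edited replicate 2, *FN1* stood at place 11 of the 9590 tested genes.

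The promoter of *FN1* (RefSeq, GRCh38.p14, chr2:215436019-215436318 on the minus strand, read 5 prime to 3 prime) is printed because this gene showed the largest difference between the edited libraries among the 8. It covers 300 bases around the annotated start and has a GC content of 76.7%. Capitals mark a cAMP response element (TGACGTCA, both strands searched), which was found in 1.85% of 35116 promoters of this length.
FN1 promoter: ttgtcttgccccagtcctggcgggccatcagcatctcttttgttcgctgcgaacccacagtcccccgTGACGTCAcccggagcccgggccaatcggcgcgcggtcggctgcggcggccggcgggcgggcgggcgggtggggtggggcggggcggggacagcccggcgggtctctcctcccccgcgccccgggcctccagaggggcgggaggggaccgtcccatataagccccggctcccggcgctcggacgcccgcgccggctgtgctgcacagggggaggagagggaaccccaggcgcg
Among the 12 promoters listed for the 10 genes, this element was found in that of *FN1* only. An AP-1 motif (TGANTCA) was found in 0 of the 12 and in 7.71% of all promoters. The TEAD motif GGAATG was found in 3 of the 12, those of *FBN1*, *SPARC* and *THBS1*, and in 14% of all promoters. The *FBN1* window (chr15:48644921-48645220) lies inside the gene and does not reach its annotated start at 48645709. The E-box CACCTG, which ZEB and SNAI factors bind, was also found in 3 of the 12, that of *LAMA5* and 2 overlapping ones of *LOX*, and in 20.6% of all promoters. The overlapping *LOX* windows hold the same site. The remaining *LOX* promoter (chr5:122078210-122078509), which spans the annotated start of the gene, held none of these motifs. The motifs were searched on both strands, and a match or its absence in these windows says nothing of the factor.

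*TNC* codes for tenascin C, a hexameric matricellular glycoprotein of wound healing and of tumour stroma. It lies on chromosome 9 (115019575 to 115118157 on GRCh38). In edited cells it measured 33.0 (replicate 1) and 172 (replicate 2), against 198 and 190 in the wild-type replicates. The wild-type libraries were close to each other, edited replicate 2 was just below them, and edited replicate 1 was far below. Both edited libraries lay below both wild-type libraries, as they did for 26.9% of all tested genes. The log2 fold change was -1.35 (95% interval -3.15 to 0.45, adjusted p = 0.252 from limma). Without edited replicate 2 it was -2.52 and passed the threshold (adjusted p = 0.00142 from limma), while without edited replicate 1 it was -0.17. The tested genes of chromosome 9 had a median log2 fold change -0.28 from that of all tested genes, and the part of this shift in the *TNC* value was not tested.

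*THBS1* codes for thrombospondin 1, a trimeric glycoprotein that activates latent TGF-beta and inhibits angiogenesis. It lies on chromosome 15 (39581079 to 39599466 on GRCh38). In edited cells it measured 136 (replicate 1) and 271 (replicate 2), against 92.0 and 15.3 in the wild-type replicates. Both edited libraries were above both wild-type libraries, which was so for 38.3% of all tested genes. Here the wild-type libraries were farther apart (6.01-fold) than the edited ones (1.99-fold). Edited cells averaged 204 ± 95.4 (SD, n = 2) and wild-type cells 53.6 ± 54.2 (SD, n = 2). The log2 fold change was 2.31 (95% interval 0.26 to 4.36, unadjusted p = 0.0330, adjusted p = 0.125 from limma). Leaving out single libraries moved it between 1.06 (wild-type replicate 2 left out) and 3.57 (wild-type replicate 1 left out), with adjusted p from 0.0658 to 0.339 in limma.

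*FBN1* codes for fibrillin 1, the backbone of the microfibrils that carry elastin and store latent TGF-beta. It lies on chromosome 15 as well (48408313 to 48645709 on GRCh38). In edited cells it measured 4.74 (replicate 1) and 13.5 (replicate 2), against 1.35 and 1.90 in the wild-type replicates. Both edited libraries were above both wild-type libraries, which was so for 38.3% of all tested genes. *FBN1* was under the filter and so not among these, and no such share was computed over all genes. Edited replicate 2 was 2.84-fold above edited replicate 1. The log2 fold change was 1.80 (95% interval 0.60 to 3.005, unadjusted p = 0.0115, adjusted p = 0.0853 from limma among all genes). Leaving out single libraries moved it between 1.14 and 2.47. The 2 seed matches printed above lie in its UTR of 2677 bases.

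*LOX* codes for lysyl oxidase, the copper-dependent enzyme that starts the cross-linking of collagen and elastin. It lies on chromosome 5 (122063195 to 122078259 on GRCh38). In edited cells it measured 1.90 (replicate 1) and 7.62 (replicate 2), against 3.47 and 4.78 in the wild-type replicates. As for *FN1*, edited replicate 1 was the lowest and edited replicate 2 the highest library. The log2 fold change was -0.02 (95% interval -1.40 to 1.35, adjusted p = 0.984 from limma among all genes). Leaving out edited replicate 1 gave 0.76, and leaving out edited replicate 2 gave -0.81. The tested genes of chromosome 5 had a median log2 fold change 0.27 above that of all tested genes. *LOX* has the most seed matches of the set, and its group means were 4.76 ± 4.04 (SD, n = 2) for edited and 4.13 ± 0.929 (SD, n = 2) for wild-type libraries.

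The laminin genes of the set code for the alpha 5, beta 1 and gamma 1 chains, which together form laminin-511, a main laminin of mature epithelial basement membranes. *LAMB1*, on chromosome 7 (107923799 to 108003161 on GRCh38), measured 232 (replicate 1) and 684 (replicate 2) in edited cells, against 570 and 368 in the wild-type replicates. The wild-type values again lay between those of the edited libraries. Its log2 fold change was -0.20 (95% interval -1.54 to 1.13, adjusted p = 0.823 from limma). It was 0.58 without edited replicate 1 and 0.11 without wild-type replicate 1. The tested genes of chromosome 7 had a median -0.28 from that of all tested genes.

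*LAMC1*, on chromosome 1 (183023420 to 183145592 on GRCh38), measured 372 (replicate 1) and 577 (replicate 2) in edited cells, against 408 and 482 in the wild-type replicates. These were the most even of the 8 genes across the 4 libraries, although the edited libraries were again the lowest and the highest. Its log2 fold change was 0.06 (95% interval -0.63 to 0.76, adjusted p = 0.897 from limma), and it turned to -0.061 when library totals were made equal, -0.20 after quantile and -0.26 after cyclic loess normalization. *LAMA5*, on chromosome 20 (62309065 to 62367312 on GRCh38), measured 350 (replicate 1) and 547 (replicate 2) in edited cells, against 569 and 574 in the wild-type replicates. Both edited libraries were below both wild-type libraries, edited replicate 2 by little, and this order was found in 26.9% of all tested genes. Its log2 fold change was -0.38 (95% interval -1.06 to 0.29, adjusted p = 0.367 from limma), ranging from -0.71 (edited replicate 2 left out) to -0.06 (edited replicate 1 left out).

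Within each library the laminin chains can be set against each other, as far as the values are per length. The ratio of *LAMA5* to *LAMC1* was 0.941 and 0.948 with the edit (replicates 1 and 2) and 1.39 and 1.19 without it, and the groups did not overlap. The ratio of *LAMB1* to *LAMC1* was 0.623 and 1.19 with the edit and 1.397 and 0.764 without it, and the groups overlapped. These ratios were not tested. For single genes, both edited libraries lay above both wild-type libraries in 38.3% of tested genes and below them in 26.9%. No such share was computed for ratios.

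**Figure D2:**
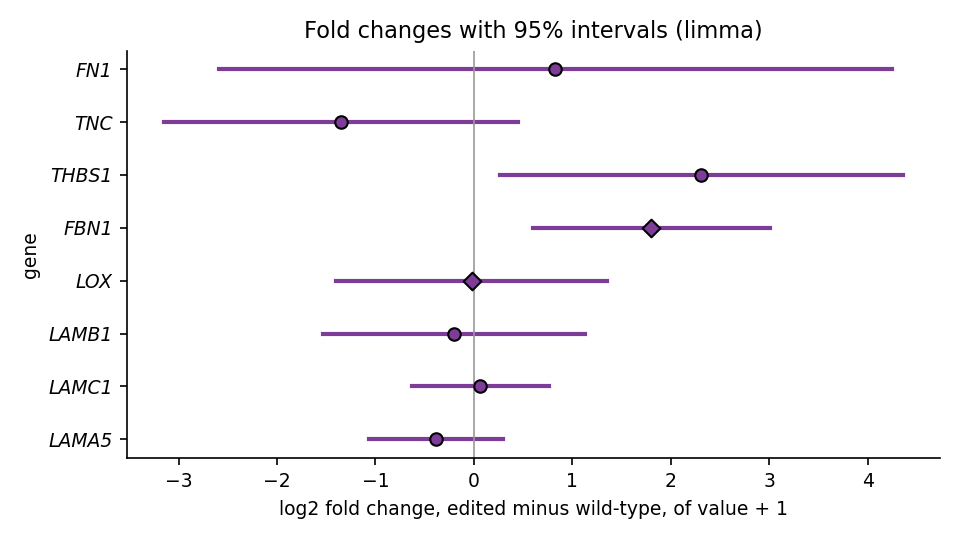
Log2 fold change of value + 1 (edited minus wild-type) of the 8 genes, with 95% intervals from limma, where circles are genes fitted after the filter and diamonds are genes fitted among all 16811. Intervals of *THBS1* and *FBN1* lie above 0, those of the other 6 genes include 0, and 0 of the 8 passed an adjusted p of 0.05.

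By level in wild-type cells, the order was *LAMA5* (572 ± 3.84), *FN1* (479 ± 234), *LAMB1* (469 ± 143), *LAMC1* (445 ± 52.3), *TNC* (194 ± 5.56), *THBS1* (53.6 ± 54.2), *LOX* (4.13 ± 0.929) and *FBN1* (1.63 ± 0.386), as mean value ± SD with n = 2. Among the first 4, each gene overlapped with its neighbours in that order, while *LAMA5* (569 and 574) and *LAMC1* (408 and 482) did not overlap. *TNC*, *THBS1*, *LOX* and *FBN1* were each separated from their neighbours. In edited replicate 1 the highest of the 8 was *LAMC1* at 372, and *FN1* came behind all 3 laminin chains. In edited replicate 2 *FN1* at 3735 was above *LAMB1* at 684, the next in the order. *FBN1* was above *LOX* in both edited libraries and below it in both wild-type libraries.

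Edited replicate 1 was below both and edited replicate 2 above both wild-type libraries for 3 of the 6 tested genes (*FN1*, *LAMB1* and *LAMC1*) and, under the filter, for *LOX*. This pattern was found in 3.71% of all tested genes. At least a 2-fold difference of value + 1, with edited replicate 2 higher, was found for 3 of the 6 tested genes (*FN1*, *TNC* and *LAMB1*), and in 3.48% of all tested genes. The opposite, edited replicate 1 at least 2-fold higher, was found for 0 of the 6 and in 1.24% of all tested genes. *LOX* and *FBN1*, which were under the filter, also differed at least 2-fold, by 1.57 and 1.33 on the log2 scale. The median difference of the 6 genes was 1.27 on the log2 scale, against -0.03 over all tested genes. Between the wild-type libraries, *FN1* and *THBS1* were at least 2-fold higher in replicate 1, which was so for 1.87% of all tested genes. Of the 6 tested genes, 0 were at least 2-fold higher in wild-type replicate 2, as were 1.24% of all tested genes. Among the fibroblast markers, *FAP* (12.2 and 114) and *DCN* (15.1 and 105) also had higher values in edited replicate 2 than in edited replicate 1, while *FBLN1* (228 and 238) and *COL1A1* (3.19 and 5.58) differed by less than 2-fold. Of the 8 epithelial markers, 4 were higher in edited replicate 2, which were *KRT17* (621 and 1738), *KRT14* (80.3 and 190), *TP63* (12.6 and 31.2) and *KRT18* (266 and 296). The other 4 were lower there, which were *EPCAM* (9.93 and 5.29), *CDH1* (3.89 and 1.54), *KRT5* (3514 and 3056) and *KRT8* (378 and 365). The part of a different mix of cells in these differences was not tested, and in bulk libraries a smaller share of a cell type and less RNA per cell cannot be told apart.

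**Figure D3:**
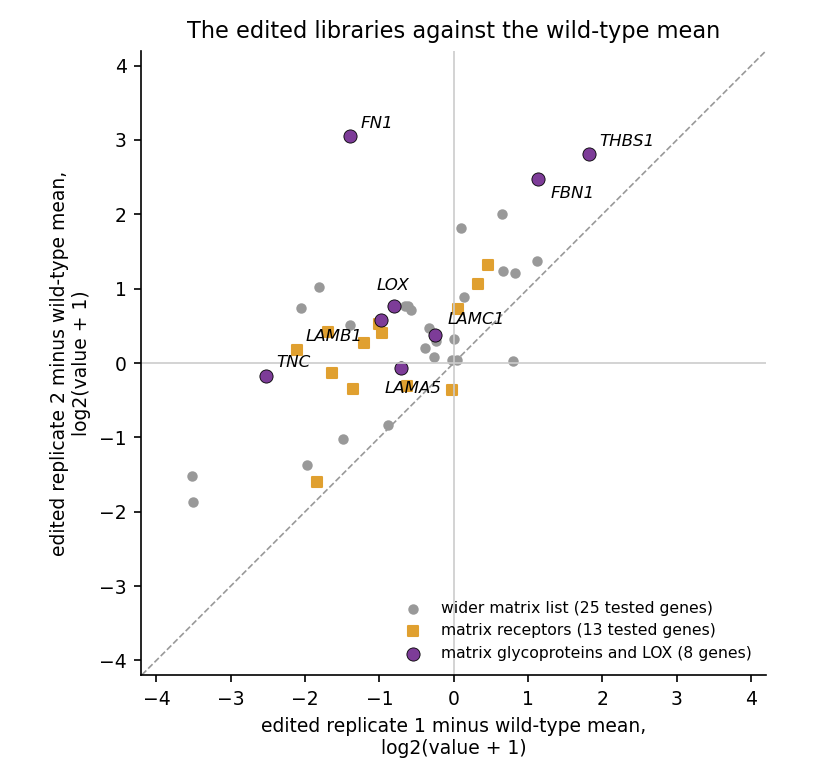
Difference of edited replicate 1 (horizontal axis) and of edited replicate 2 (vertical axis) from the wild-type mean on the log2(value + 1) scale, for the 8 genes (purple), the tested genes of the wider matrix list (grey) and the tested matrix receptors (orange squares). The dashed line marks equal values. All 8 genes lie above it, and *FN1* lies at -1.39 and 3.05.

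A wider list of 58 matrix genes, also chosen with earlier results of these data known, was compared in the same fit. Of these genes, 35 were in the table and 25 passed the filter. At an adjusted p under 0.05 (limma), 1 of the 25 was higher and 2 were lower in edited cells. Of all tested genes, 2.89% were called higher and 4.2% lower. *MFAP5*, a microfibril-associated glycoprotein gene, was listed at 29.3 and 35.1 with the edit and at 14.4 and 11.7 without it (log2 fold change 1.25, adjusted p = 0.0336). *EFEMP2*, which codes for fibulin 4 of the elastic fibre, was listed at 6.66 and 10.7 with the edit and at 24.1 and 35.1 without it (-1.67, adjusted p = 0.0399). *THBS3*, a thrombospondin gene of the pentameric subgroup, was listed at 21.3 and 29.8 with the edit and at 58.6 and 65.1 without it (-1.26, adjusted p = 0.0371). With wild-type replicate 1 or wild-type replicate 2 left out, none of these 3 genes kept the call, and few of all tested genes were called. The log2 fold changes were then 1.38 and 1.11 for *MFAP5*, -1.94 and -1.41 for *EFEMP2* and -1.335 and -1.19 for *THBS3*. Without edited replicate 1, *EFEMP2* (-1.37) and *THBS3* (-1.03) lost the call. When all 16811 genes were fitted without the filter, limma called 224 upward and 571 downward (adjusted p under 0.05). Of the genes under the filter, *LAMA4* was higher (2.87 and 5.45 with the edit and 0.263 and 0.244 without it, adjusted p = 0.0435 among all genes). *MATN2*, which codes for matrilin 2, was lower (3.87 and 3.37 with the edit and 11.6 and 19.9 without it, adjusted p = 0.0441). Both calls were lost with any 1 library left out (adjusted p from 0.0933 to 0.234).

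Close relatives of the 10 genes gave no call in the lysyl oxidase and SPARC groups. *LOXL2*, an enzyme of the lysyl oxidase family with far higher values than *LOX* itself, was listed at 196 and 329 with the edit and at 113 and 280 without it (adjusted p = 0.502 from limma). *LOXL1* measured 35.3 and 20.3 with the edit and 21.7 and 18.1 without it (adjusted p = 0.361). Under the filter, *LOXL4* measured 0.543 and 0.680 with the edit and 9.36 and 4.01 without it (log2 fold change -2.16, adjusted p = 0.0502 among all genes), and *LOXL3* ranged from 2.50 to 4.21 over the 4 libraries (adjusted p = 0.399 among all genes). *FBN2*, the gene of fibrillin 2, was listed at 11.0 and 16.9 with the edit and at 6.04 and 7.17 without it (adjusted p = 0.0980). *NID2*, the gene of nidogen 2, was under the filter, at 0.354 and 0.692 with the edit and at 5.02 and 2.97 without it (adjusted p = 0.0511 among all genes). *SPOCK1*, of the SPARC family, was listed at 13.6 and 36.4 with the edit and at 7.31 and 9.47 without it (adjusted p = 0.117). The laminin chain genes *LAMA3* and *LAMB3* did not pass the threshold, with log2 fold changes of -2.69 (adjusted p = 0.0520) and -2.52 (adjusted p = 0.0715). Of the 25 tested genes, 23 were higher in edited replicate 2 than in edited replicate 1, against 46.6% of all tested genes. At least a 2-fold difference of value + 1 was found for 10 of them, against 3.48% of all tested genes. Among these, *MFAP2* had the largest difference (2.58 and 24.6 with the edit, 13.6 and 9.85 without it). It reached the filter only through its value in edited replicate 2, so its place in this count was partly built in. *TGFBI*, an abundant adhesive matrix protein gene, measured 1171 and 2873 with the edit (replicates 1 and 2) and 1625 and 1886 without it, so that it too had wild-type values between the edited ones.

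A list of 15 receptors that bind these matrix proteins was likewise chosen with earlier results known. Of these receptors, 13 were in the table and all 13 passed the filter. At an adjusted p under 0.05, 0 were higher (2.89% of all tested genes) and 1 was lower (4.2% of all tested genes) in edited cells. This was *CD47*, a receptor of thrombospondin 1, at 61.3 and 73.2 with the edit and 197 and 252 without it (log2 fold change of -1.72, with an adjusted p = 0.0199 in limma). The call was lost without wild-type replicate 1 (log2 fold change -1.90) or wild-type replicate 2 (-1.54). Few of all tested genes were called in these fits. *ITGA5*, the alpha chain of the main fibronectin receptor, was listed at 59.1 and 173 with the edit (replicates 1 and 2) and at 119 in both libraries without it. Its partner *ITGB1* was listed at 597 and 955 with the edit and at 581 and 571 without it (adjusted p = 0.374). Of the 13 receptors, 12 were higher in edited replicate 2 than in edited replicate 1, against 46.6% of all tested genes. At least a 2-fold difference of value + 1 was found for 7 of them, against 3.48% of all tested genes. The exception to the direction was *DAG1*, the dystroglycan gene (82.4 and 64.8).

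**Figure D4:**
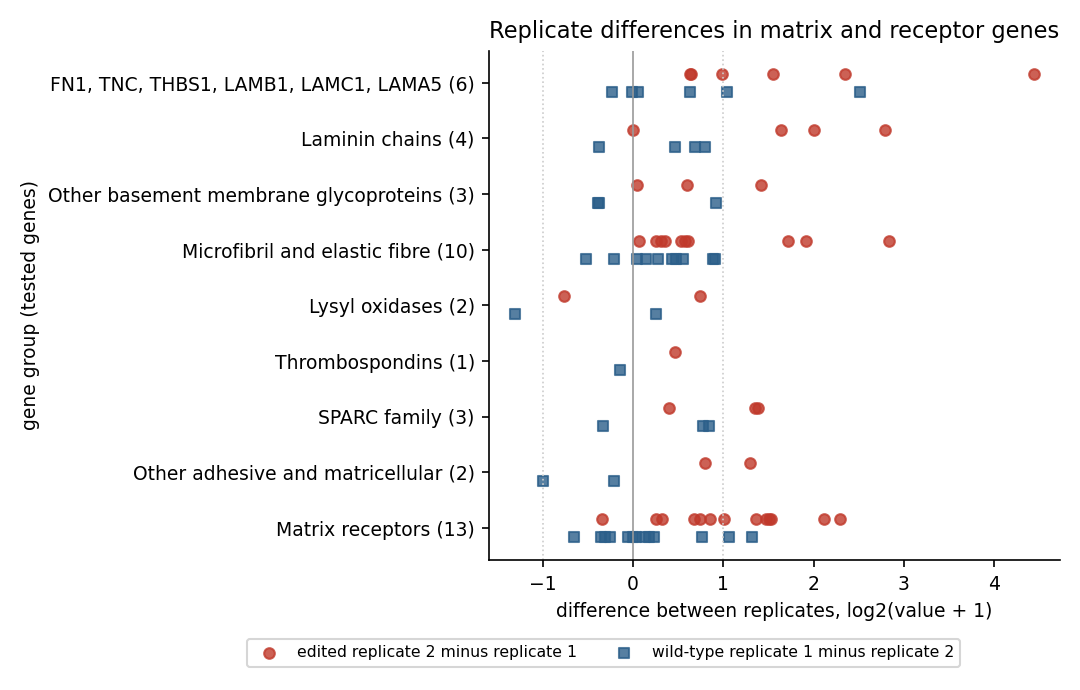
Difference between replicates on the log2(value + 1) scale for each tested gene, by group, with the number of tested genes in brackets. Red circles are edited replicate 2 minus replicate 1, blue squares are wild-type replicate 1 minus replicate 2, and dotted lines mark a 2-fold difference. Red circles lie to the right of 0 for all 6 genes of the top row, for 23 of 25 genes of the wider list and for 12 of 13 receptors. Over all tested genes, 46.6% were higher in edited replicate 2.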

How the data were processed

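Poly(A)-selected RNA of 2 edited and 2 wild-type cultures, described as biological replicates, was read from a single end over 75 bases. What the authors deposited is a normalized expression signal for 16811 gene symbols. The submitters' processing notes name Salmon, HISAT2 and hg38; versions, annotation and normalization are not given in the sources used here. Among 1022 genes with 1 transcript, low values showed a stronger common step after multiplication by transcript length, but at most 48.7% were whole (within 0.1 of a step), so reads were not recovered and count tests were not used.

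Tests used limma 3.58.1 under R 4.3.3 (lmFit, eBayes with trend) on log2(value + 1) over the 9590 genes with a mean of at least 10. An adjusted p of 0.001, the study's RNA-seq threshold, was among 15 alternative settings, to which the crossed pairing was added. The test was checked on simulated data. Groups came from the sample labels. Symbols were matched to RefSeq (GRCh38.p14) for 8478 tested genes and to GENCODE version 44 on GRCh37 for UTRs. Python 3.11.15 with pandas 2.3.3 was used.

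The 10 genes and the other lists were chosen with earlier results of these data known. Named were all 10 genes, genes of the wider matrix and receptor lists with an adjusted p under 0.05 (at most 10 each) and the cell type markers listed in the table; relatives of the 10 genes, *LAMA3*, *LAMB3*, *TGFBI*, *MFAP2*, *ITGA5*, *ITGB1* and *DAG1* were named after their values were seen. *C1orf132* was not analysed here, so groups rest on the labels. The counts of the wider list include 1 gene that is not reported here.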

Additional observations from a re-analysis of the deposited data

How the results depend on the processing

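The crossed pairing, and all settings for the count of genes that differed between edited replicates, were added after seeing the data. Of 116 refits of the fold changes of the 8 genes, 99 kept their direction and their side of the threshold, 14 changed direction and 3 passed the threshold.

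Of all tested genes 680 were called, 419 with a mean of at least 50, 133 with the replicate block, 1 at an adjusted p under 0.001, and 4 (without wild-type replicate 2) to 1431 (without edited replicate 2) with 1 library left out, including 47 without wild-type replicate 1 and 424 without edited replicate 1. Of the 8 genes 0 were called; 1 was called with the crossed pairing, and 0 to 1 with 1 library left out (*FN1* without edited replicate 1, *TNC* without edited replicate 2). Over all alternatives the adjusted p from limma ranged from 0.0111 to 0.941 for *FN1*, from 0.00142 to 0.774 for *TNC* and from 0.0193 to 0.339 for *THBS1*. Of the wider list 3 genes were called, 0 with the replicate block or at 0.001, 5 with the crossed pairing, and 0 to 8 with 1 library left out. The count of genes at least 2-fold higher in edited replicate 2 rose from 3 to 5 without the filter, since *LOX* and *FBN1* then entered.

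Directions turned as follows (log2 fold change). *FN1* was -1.39 without edited replicate 2 (range with 1 library left out -1.39 to 3.05). *LOX* was 0.036 with a pseudocount of 5, 0.076 with equal medians, 0.15 with quantile and 0.10 with cyclic loess normalization, 0.76 without edited replicate 1 and 0.16 without wild-type replicate 2 (range -0.81 to 0.76). *LAMB1* was 0.58 without edited replicate 1 and 0.11 without wild-type replicate 1 (range -0.98 to 0.58). *LAMC1* was -0.061 with equal library totals, -0.20 with quantile and -0.26 with cyclic loess normalization, -0.25 without edited replicate 2 and -0.06 without wild-type replicate 1 (range -0.25 to 0.38). The cause was not tested. Equal library totals moved the median of all tested genes from 0.09 to -0.03.

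The sources used here do not say whether libraries with the same replicate number were prepared together. Replicate differences correlated at r = -0.138 across genes between the groups, which does not settle the pairing. With the crossed pairing 1002 genes were called, *THBS1* among them (adjusted p = 0.0193 from limma). With an edited or wild-type library left out, the lone library was assumed to vary like the other group. Depth is unknown, so the precision of *LOX* and *FBN1* cannot be given.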
